A study of Mus musculus with 12 samples.

Results

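The Hedgehog genes described here were Shh, Ptch1, Gli1, Gli2, Gli3, Smo, Hhip, Boc and Cdon. They were chosen by name, and all 9 are among the 19954 genes listed for 12 RNA-seq libraries of mouse retina at embryonic stage E15.5. The groups were mutant males, wildtype males, mutant females and wildtype females on a C57BL/6 background, with 3 libraries each, numbered 4, 5 and 6. Mutants carried floxed Tbr2 with Six3-Cre (Tbr2f/f;Six3-Cre). Six3-Cre drives Cre recombinase in the developing eye field, so the allele was open to deletion in retinal cells of many types. The controls are labelled as wild type, and the labels name no Cre or floxed allele in them. Each library pooled 12 retinas from several litters, so p-values here rest on how far pools varied.

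Sonic hedgehog is a secreted signal. It binds the receptor Ptch1, which then no longer holds back the membrane protein Smo, and Smo acts through the zinc finger factors Gli1, Gli2 and Gli3. In the embryonic retina, ganglion cells are the source of Shh, and the dividing progenitors next to them respond. Ptch1, Gli1 and Hhip are themselves switched on by the signal, and their RNA is widely read as a measure of it. Tbr2, listed as Eomes, is a T-box transcription factor made in a subset of ganglion cells, including those that contain melanopsin. The question here was whether the ligand differed between mutant and wildtype retina and whether the targets followed it.

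Eomes stood at 9.62 to 27.4 CPM (a gene's reads scaled to a common library total) in mutant libraries and at 53.4 to 76.1 CPM in wildtype libraries, with no overlap. Mutant males, at 21.2 to 27.4 CPM, were all above mutant females, at 9.62 to 16.1 CPM. Wildtype males were at 56.8 to 76.1 CPM and wildtype females at 53.4 to 64.6 CPM. Ganglion cell markers were present: of a list of 12, all were detected, and their summed level was 3244 to 3633 CPM in mutants and 3241 to 3472 CPM in wildtypes. The summed level of 12 progenitor markers was 7635 to 8331 CPM in mutants and 7429 to 7837 CPM in wildtypes. Libraries fell into sets of 5 with high and 7 with low mt-Nd6, a mitochondrial transcript. The high set held mutant male 4, wildtype male 5, mutant female 4 and wildtype females 4 and 6, so each group had libraries of both kinds. Lens RNA, marked by Cryaa, ranged from 0.918 to 907 CPM in mutants and from 1.70 to 355 CPM in wildtypes. The 7 tested lens markers were all higher in mutants, with a median log2 fold change of 1.53, from 1.94 for Mip to 0.61 for Cryab. By edgeR 0 of them passed and 0 had an unadjusted p under 0.05, and DESeq2 and voom called 0. All 9 members were refitted without the 3 libraries highest in Cryaa, where 0 members passed, as did 0 of all genes. The share of all genes above 0 was not taken for this refit, where 7 member log2 fold changes were above 0. Those of Shh, Ptch1, Gli2 and Gli3 are given with each gene, and the rest were 0.11 for Gli1, 0.13 for Hhip, 0.10 for Smo, -0.06 for Boc and -0.001 for Cdon.

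Shh RNA was above the highest wildtype library in all 6 mutant libraries, but its difference did not pass the test over all genes. It was at 6.24, 6.00 and 5.89 CPM in mutant males 4, 5 and 6 and at 3.07, 5.001 and 2.64 CPM in wildtype males 4, 5 and 6. It was at 7.01, 5.56 and 5.63 CPM in mutant females 4, 5 and 6 and at 5.02, 3.61 and 5.19 CPM in wildtype females 4, 5 and 6. The mutant libraries lay close together, and the wildtype spread came from 3 libraries below 4 CPM, wildtype males 4 and 6 and wildtype female 5. The means were 6.05 ± 0.530 CPM in mutants and 4.09 ± 1.12 CPM in wildtypes (SD, n = 6 each). The log2 fold change was 0.56 (SE 0.18), a ratio of 1.48, with an unadjusted p of 0.00689 and an adjusted p of 0.918 in edgeR's quasi-likelihood test. Only 0.0776% of the 15467 genes tested had every mutant library above every wildtype library, and 2.92% had an unadjusted p under 0.05. In pooled retina, more cells that make Shh and more Shh RNA per cell cannot be told apart.

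Shh was a low-abundance transcript, with 109 to 158 reads in mutant libraries and 59 to 136 in wildtype libraries. The gap between the genotypes was narrow for such counts. Mutant female 5, the lowest mutant, had a 95% exact Poisson interval of 4.64 to 6.60 CPM, and wildtype female 6, the highest wildtype, one of 4.24 to 6.29 CPM. The 3 low wildtype libraries were those of the set low in mt-Nd6. Within the low set Shh was at 5.56 to 6.00 CPM in 4 mutants and at 2.64 to 3.61 CPM in 3 wildtypes. Within the high set it was at 6.24 to 7.01 CPM in 2 mutants and at 5.001 to 5.19 CPM in 3 wildtypes. As every mutant library was above every wildtype library, the genotypes had to be apart within either set, which adds no check. The log2 fold changes were 0.90 (SE 0.19) in the low set and 0.40 (SE 0.17) in the high set. Neither passed edgeR's test over all genes (adjusted p = 0.439 and 0.657). With a term for the set the log2 fold change was 0.67 (SE 0.13, unadjusted p = 0.000160, edgeR adjusted p = 0.177). Without the 3 libraries highest in Cryaa it was 0.74 (SE 0.19). Shh (ENSMUSG00000002633, protein coding) lies on mm10 chromosome 5 from 28456815 to 28467101, minus strand. The antisense gene 9530036O11Rik, with 0 to 14 reads per library, and the lincRNA Gm26894, with 0 to 10, overlap it on the other strand in GENCODE M21.

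**Figure D1:**
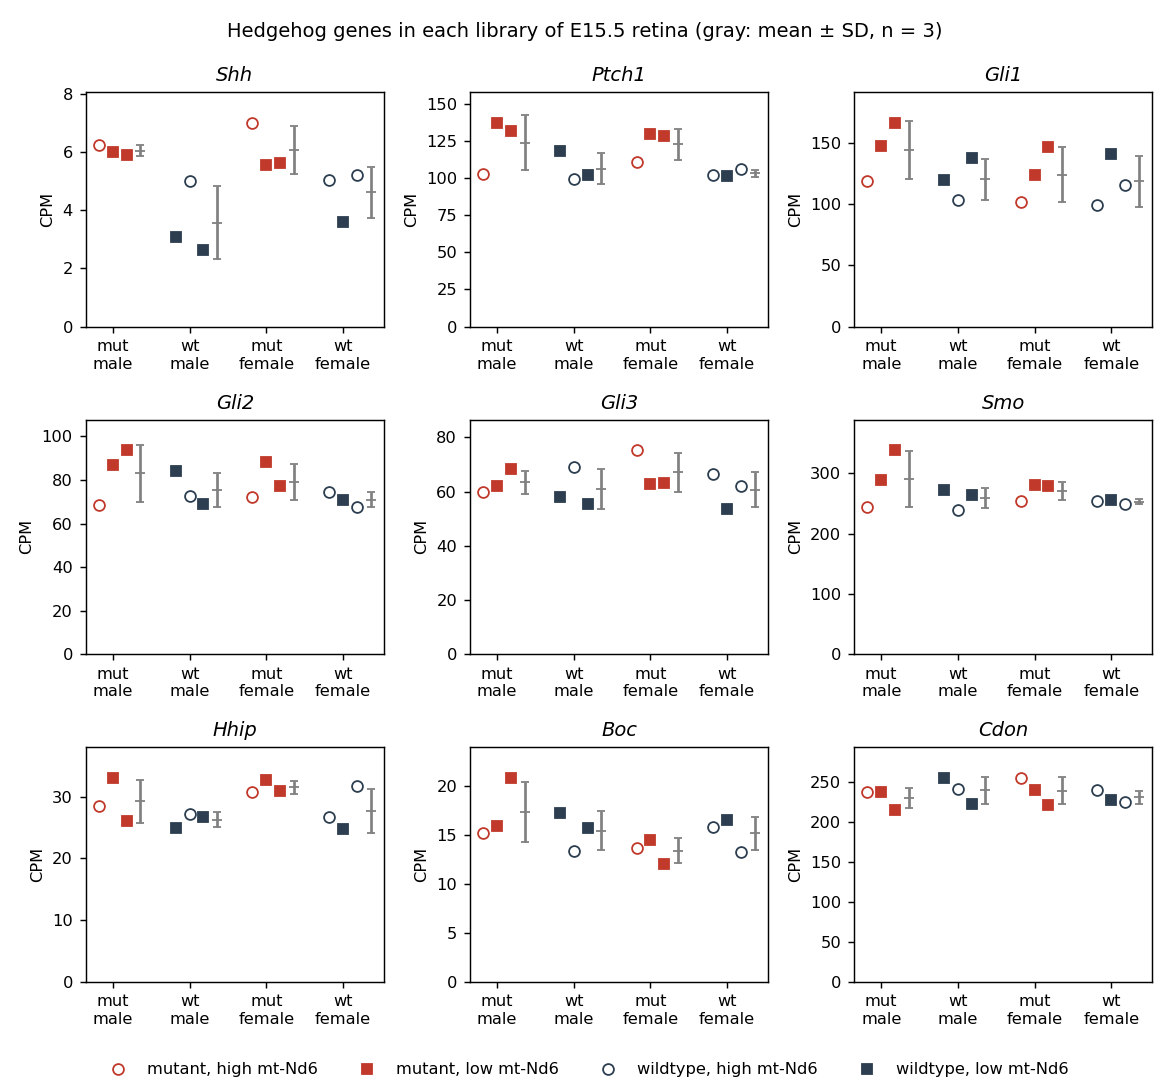
CPM of the 9 Hedgehog genes in each library (left to right within a group: replicates 4, 5 and 6), with mutants left of wildtypes of the same sex. Circles are libraries high in mt-Nd6 and squares are libraries low in it, and gray bars are the group mean ± SD (n = 3). Shh is the gene whose mutant and wildtype libraries do not overlap.

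The other ligands of the family were near the floor of detection. Ihh, Indian hedgehog, had 0 to 8 reads in mutant libraries and 1 to 6 in wildtype libraries. Dhh, Desert hedgehog, had 0 to 11 reads in mutants and 1 to 16 in wildtypes. Neither was kept by the filter on low counts, so neither was tested.

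Ptch1, which encodes the receptor and is induced by the signal, had the second smallest p of the members. It was at 103, 137.5 and 132 CPM in mutant males 4, 5 and 6 and at 118, 99.2 and 102 CPM in wildtype males 4, 5 and 6. It was at 111, 129.5 and 128 CPM in mutant females 4, 5 and 6 and at 102, 102 and 106 CPM in wildtype females 4, 5 and 6. The 4 highest libraries were the mutants low in mt-Nd6, the 2 mutants high in it were within the wildtype range, and wildtype male 4 stood above the other wildtypes. The means were 123.5 ± 13.6 CPM in mutants and 105 ± 6.82 CPM in wildtypes (SD, n = 6 each), a log2 fold change of 0.23 (SE 0.07). The unadjusted p was 0.00765, and the gene did not pass edgeR's test over all genes (adjusted p = 0.918). Within the low set it was at 128 to 137.5 CPM in mutants and at 102 to 118 CPM in wildtypes, with no overlap. Within the high set it was at 103 to 111 CPM in mutants and at 99.2 to 106 CPM in wildtypes, which overlap. The log2 fold changes there were 0.33 (SE 0.08) and 0.07 (SE 0.06), neither past the threshold (edgeR adjusted p = 0.543 and 0.784). Without the 3 libraries highest in Cryaa it was 0.16 (SE 0.09). Ptch1 (ENSMUSG00000021466) lies on mm10 chromosome 13 from 63511533 to 63565520, minus strand.

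Hhip encodes a membrane protein that binds and sequesters Hedgehog ligands and is a target of the signal. It was at 28.5, 33.1 and 26.1 CPM in mutant males 4, 5 and 6 and at 24.9, 27.2 and 26.7 CPM in wildtype males 4, 5 and 6. It was at 30.8, 32.65 and 31.0 CPM in mutant females 4, 5 and 6 and at 26.7, 24.8 and 31.7 CPM in wildtype females 4, 5 and 6. The genotypes overlapped through mutant male 6, which was among the wildtype values, and wildtype female 6, which was among the mutant values. The means were 30.4 ± 2.63 CPM in mutants and 27.0 ± 2.5 CPM in wildtypes, and the log2 fold change of 0.16 (SE 0.08) missed the threshold of edgeR's test (unadjusted p = 0.0522, adjusted p = 0.918). It was 0.27 (SE 0.11) within the set low in mt-Nd6 and 0.08 (SE 0.09) within the high set. Hhip (ENSMUSG00000064325) lies on mm10 chromosome 8 from 79966115 to 80058006, minus strand.

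Gli1 encodes the activator whose own gene is a target of the signal. It was at 119, 147 and 166 CPM in mutant males 4, 5 and 6 and at 120, 103.5 and 137 CPM in wildtype males 4, 5 and 6. It was at 101, 123 and 146.5 CPM in mutant females 4, 5 and 6 and at 99.03, 140.5 and 116 CPM in wildtype females 4, 5 and 6. The genotypes overlapped over most of their range, and the order of the libraries went with the mt-Nd6 set: all 5 high libraries, at 99.03 to 119 CPM, were below all 7 low libraries, at 120 to 166 CPM. With TMM scaling the sets just met, as wildtype male 4 of the low set was then below mutant male 4 of the high set. The means were 134 ± 23.55 CPM in mutants and 119 ± 17.0 CPM in wildtypes, with a log2 fold change of 0.16 (SE 0.11, edgeR adjusted p = 0.918). With a term for the set it was 0.10 (SE 0.07, edgeR adjusted p = 0.958), and without mutant male 6 it was 0.09. Within the set low in mt-Nd6 it was 0.16 (SE 0.10) and within the high set 0.04 (SE 0.08). Gli1 (ENSMUSG00000025407) lies on mm10 chromosome 10 from 127329889 to 127341589, minus strand, and shares its end with Arhgap9 on the other strand, which had 2 to 15 reads per library.

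The promoters of Ptch1 and Hhip are shown because these are the target genes among the 6 members matched by symbol in the RefSeq promoter table of build GRCm38.p6. Each runs 5′ to 3′ on the gene's strand from 250 bases before the annotated start to 50 after it, and capitals mark CCACCC or GGGTGG, the core of the GLI binding motif. The windows are chr13:63565686-63565985 for Ptch1 and chr8:80057959-80058258 for Hhip, both minus strand. The RefSeq start of Ptch1 lies outside the span listed for the gene in the deposited table.
Ptch1: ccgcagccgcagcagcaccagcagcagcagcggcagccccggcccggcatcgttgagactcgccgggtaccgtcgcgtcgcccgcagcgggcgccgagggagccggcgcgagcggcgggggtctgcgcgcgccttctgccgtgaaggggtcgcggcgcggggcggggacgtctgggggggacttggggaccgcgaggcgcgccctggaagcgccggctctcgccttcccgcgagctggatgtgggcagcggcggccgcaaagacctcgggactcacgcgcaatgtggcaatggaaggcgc
Hhip: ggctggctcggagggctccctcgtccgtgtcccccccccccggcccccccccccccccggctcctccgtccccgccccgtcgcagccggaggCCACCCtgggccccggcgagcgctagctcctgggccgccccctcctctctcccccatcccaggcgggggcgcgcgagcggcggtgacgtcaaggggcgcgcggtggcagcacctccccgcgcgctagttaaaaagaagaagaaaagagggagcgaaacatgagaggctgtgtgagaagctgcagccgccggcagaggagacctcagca
The full GLI motif, GACCACCCA or TGGGTGGTC, was searched on both strands and was in none of the 6 windows, against 0.253% of all 32851 promoters in the table. Its core was in 4 of the 6, those of Gli2, Gli3, Smo and Hhip, against 31.5% of all promoters. The member windows other than that of Cdon were rich in G and C, at 67.3% to 76.3%, where the median of all promoters was 52.7%. The Cdon window, from 35451826 to 35452125 on chromosome 9, lies inside the listed span of the gene, which starts at 35421128.

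Smo, the membrane protein that passes the signal inward, was at 254, 281 and 279 CPM in mutant females and 245, 288.5 and 339 CPM in mutant males. It was at 254, 256 and 249 CPM in wildtype females and 273, 240 and 264 CPM in wildtype males. Values are for libraries 4, 5 and 6 of each group. Mutant male 6 was the highest library, and 2 mutant libraries, both high in mt-Nd6, were within the wildtype range. The log2 fold change was 0.13 (SE 0.07, unadjusted p = 0.0825, edgeR adjusted p = 0.918). Without mutant male 6 it was 0.07. Within the set low in mt-Nd6 all 4 mutants, at 279 to 339 CPM, were above the 3 wildtypes, at 256 to 273 CPM, while within the high set the mutants were at 245 to 254 CPM and the wildtypes at 240 to 254 CPM. The log2 fold changes there were 0.20 (SE 0.08) and 0.02 (SE 0.05). Smo (ENSMUSG00000001761) lies on mm10 chromosome 6 from 29735694 to 29761365, plus strand, and holds the processed pseudogene Gm13717, with 0 to 15 reads per library.

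Gli2, the main activator that responds first to the signal, was at 68.5 to 93.7 CPM in mutants, with a median of 82.2, and at 67.7 to 84.2 CPM in wildtypes, with a median of 71.7. The log2 fold change was 0.14 (SE 0.08, edgeR adjusted p = 0.918). It was 0.25 within the set low in mt-Nd6 and -0.03 within the high set, and 0.08 (SE 0.10) without the 3 libraries highest in Cryaa. Gli3, which acts mainly as a repressor when no signal is present, was at 60.0 to 75.3 CPM in mutants, with a median of 63.0, and at 53.6 to 69.1 CPM in wildtypes, with a median of 60.1. Its log2 fold change was 0.09 (SE 0.09, edgeR adjusted p = 0.918). It was 0.22 (SE 0.08) within the set low in mt-Nd6, 0.05 (SE 0.10) within the high set and 0.19 (SE 0.10) without the 3 libraries highest in Cryaa. Leaving out 1 library at a time gave 0.04 without mutant female 4, 0.05 without wildtype female 5 and 0.15 without wildtype male 5. Like Shh, Gli3 was lowest in wildtype males 4 and 6 and wildtype female 5, at 53.6 to 58.1 CPM, below the other 9 libraries. Gli2 (ENSMUSG00000048402) lies on mm10 chromosome 1 from 118834132 to 119053619, minus strand, and Gli3 (ENSMUSG00000021318) on chromosome 13 from 15463235 to 15730026, plus strand.

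Boc and Cdon encode related cell surface co-receptors that help Shh bind Ptch1, and Boc also guides the axons of ganglion cells that stay on their own side of the brain. Both were at nearly the same mean level in the genotypes. Boc averaged 15.4 ± 3.02 CPM in mutants and 15.3 ± 1.66 CPM in wildtypes, and Cdon 234 ± 14.2 CPM in mutants and 235 ± 12.7 CPM in wildtypes (SD, n = 6 each). The log2 fold changes were -0.01 (SE 0.11) for Boc and -0.01 (SE 0.06) for Cdon, which is less than either standard error. Boc was highest in mutant male 6, at 20.85 CPM, and lowest in mutant female 6, at 12.0 CPM. Of 5 genes of ganglion cells that project to the same side, Boc included, 2 were higher and 3 lower, and Ephb1, a guidance receptor of these axons, was at 0.15 (SE 0.07, unadjusted p = 0.0349), with Slc6a4, a serotonin transporter, lowest at -0.18 (SE 0.20). Boc (ENSMUSG00000022687) lies on mm10 chromosome 16 from 44485045 to 44558897, minus strand, and Cdon (ENSMUSG00000038119) on chromosome 9 from 35421128 to 35507652, plus strand.

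**Figure D2:**
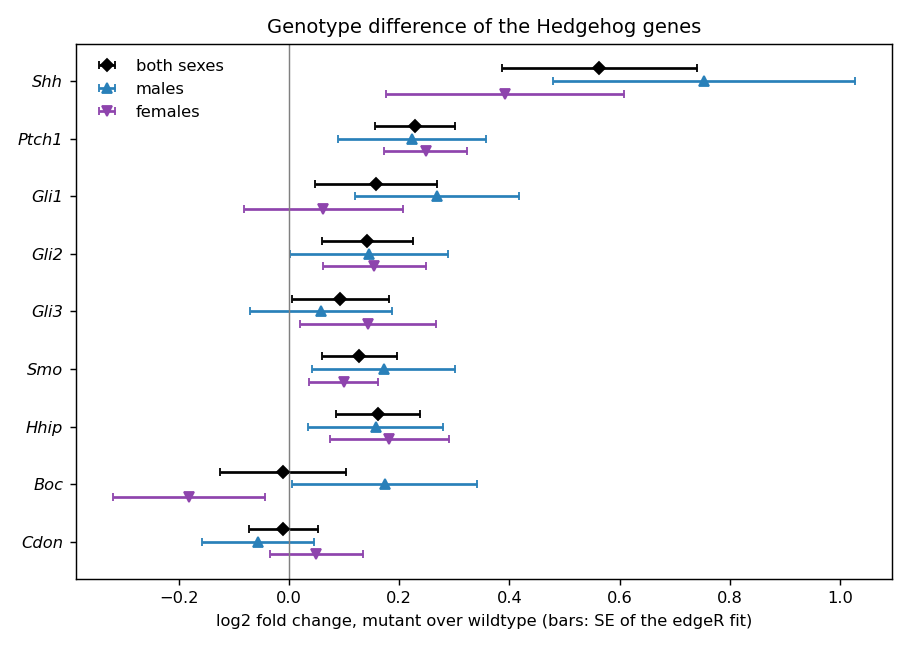
Log2 fold change of each Hedgehog gene, mutant over wildtype, in both sexes (diamonds), males (upward triangles) and females (downward triangles), with bars for the standard error of the edgeR fit. Shh lies farthest right in all 3 comparisons, at 0.56, 0.75 and 0.39, and Boc and Cdon lie at 0 in the fit of both sexes.

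Over both sexes, 0 of the 9 members passed edgeR's test with adjustment over all genes, where 0.0259% of genes did (DESeq2 called 0.097%), and DESeq2 and limma voom also called 0. Of the members 2, Shh and Ptch1, had an unadjusted p under 0.05 and were higher, as 1.42% of genes were. The log2 fold change was above 0 for 7 members and below 0 for 2, with a median of 0.14, while 47.3% of all genes were above 0 and their median was -0.01. In the authors' deposited table that joins the sexes, the log2 fold change of Shh was 0.28 (p = 0.00221, adjusted p = 0.744) and that of Ptch1 0.20 (p = 0.00315, adjusted p = 0.931), and the remaining 7 members had an adjusted p of at least 0.951. DESeq2 run here on the same counts gave 0.57 for Shh and 0.23 for Ptch1. Why the deposited values are smaller was not tested.

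The sexes were also compared alone, as in the deposited tables, and here too no member passed. In males, Shh averaged 6.04 ± 0.181 CPM in mutants and 3.57 ± 1.26 CPM in wildtypes (n = 3 each), a log2 fold change of 0.75 (SE 0.27, unadjusted p = 0.0256, edgeR adjusted p = 0.994). This value was 1.10 without wildtype male 5 and 0.56 without wildtype male 6. In females, Shh averaged 6.07 ± 0.818 CPM in mutants and 4.61 ± 0.871 CPM in wildtypes (n = 3 each), a log2 fold change of 0.39 (SE 0.22, unadjusted p = 0.106, edgeR adjusted p = 0.986), 0.23 without wildtype female 5 and 0.25 without mutant female 4. In females Ptch1 had the smallest p of the members, at 123 ± 10.4 CPM in mutants and 103 ± 2.44 CPM in wildtypes (log2 fold change 0.25, SE 0.08, unadjusted p = 0.0102, edgeR adjusted p = 0.986). In males Ptch1 was at 124 ± 18.8 CPM in mutants and 106.5 ± 10.1 CPM in wildtypes, with overlap and a log2 fold change of 0.22 (SE 0.13).

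By edgeR 0 of 9 members passed in males, where 0% of 14945 genes did, and 1 had an unadjusted p under 0.05, as 1.41% of genes had. In females 0 of 9 passed, where 0.00669% of 14956 genes did, and 1 had an unadjusted p under 0.05, as 2.63% of genes had. DESeq2 called 0 members in either sex, and 0.0402% of genes in males and 0.0669% in females. Mutant libraries were all above the wildtype libraries for 1 member in males (Shh), where 2.48% of genes were, and for 2 members in females (Shh and Ptch1), where 4.23% were. For Shh this had to be so within each sex, as its genotypes did not overlap over both sexes. For 0 members in either sex were the mutant libraries all below, where 2.90% and 3.86% of genes were.

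The difference between the sexes in the genotype effect passed for none of the members. Eomes averaged 24.5 ± 3.10 CPM in mutant males and 13.6 ± 3.49 CPM in mutant females (n = 3 each). The part of this in the values below was not tested. The 4 members farthest from 0 are given. Female effect minus male effect was -0.35 for Shh (SE 0.35), -0.35 for Boc (SE 0.22), -0.20 for Gli1 (SE 0.22) and 0.11 for Cdon (SE 0.13), each with an edgeR adjusted p of 1. For Shh this was -0.70 without wildtype male 5 and -0.16 without wildtype male 6. For Boc it was -0.44 without mutant male 4 and -0.19 without mutant male 6. For Gli1 the ends were -0.33, with mutant male 4 left out, and -0.07, with wildtype female 5 left out, and for Cdon 0.05 without mutant female 4 and 0.18 without wildtype male 6. By edgeR 0 members passed, as did 0% of all genes, 0 had an unadjusted p under 0.05, where 1.73% of genes had, and DESeq2 called 0 members and 0% of genes. Boc had opposite directions in the sexes, with 17.3 ± 3.05 CPM in mutant males against 15.4 ± 1.96 CPM in wildtype males, and 13.4 ± 1.29 CPM in mutant females against 15.2 ± 1.72 CPM in wildtype females. Between females and males over both genotypes, the largest differences of the members were 0.20 for Shh (SE 0.18), -0.17 for Boc (SE 0.11) and 0.12 for Hhip (SE 0.08). Leaving out 1 library at a time gave 0.33 (without wildtype male 5) and 0.10 (without wildtype male 6) as the ends for Shh. For Boc the value nearest 0 was -0.09, without mutant male 6, and for Hhip 0.07, without wildtype female 6. Here too 0 members passed edgeR's test, where 0.0129% of genes did, 0 had an unadjusted p under 0.05, where 2.79% of genes had, and DESeq2 called 0 members and 0.0194% of genes.

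Per gene length, the order of the members was the same in both genotypes, with Shh the lowest. In FPKM (CPM per kilobase of gene length, as deposited), Smo had the highest level, 74.4 ± 8.70 in mutants and 67.7 ± 3.03 in wildtypes (SD, n = 6 each). Gli1 followed at 36.5 ± 6.42 FPKM in mutants and 32.5 ± 4.63 FPKM in wildtypes, and Cdon at 31.4 ± 1.90 FPKM in mutants and 31.5 ± 1.71 FPKM in wildtypes. Ptch1 was at 28.7 ± 3.16 FPKM in mutants and 24.4 ± 1.58 FPKM in wildtypes. The levels of Gli1 and Cdon overlapped between libraries in both genotypes, and those of Cdon and Ptch1 overlapped in mutants and not in wildtypes.

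Gli2 stood at 12.2 ± 1.51 FPKM in mutants and 11.02 ± 0.895 FPKM in wildtypes, and Gli3 at 7.98 ± 0.688 FPKM in mutants and 7.44 ± 0.752 FPKM in wildtypes. Hhip came next at 6.62 ± 0.575 FPKM in mutants and 5.89 ± 0.546 FPKM in wildtypes, overlapping Gli3 in wildtypes and not in mutants. Boc, at 3.45 ± 0.678 FPKM in mutants and 3.44 ± 0.372 FPKM in wildtypes, and Shh, at 2.25 ± 0.197 FPKM in mutants and 1.52 ± 0.417 FPKM in wildtypes, were the lowest, and every Boc value was above every Shh value of the same genotype.

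**Figure D3:**
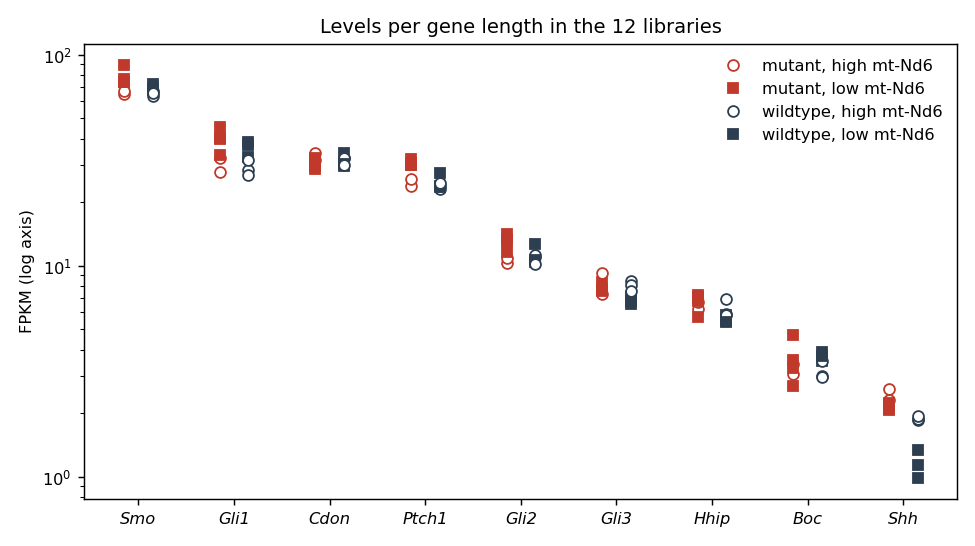
FPKM of the 9 members in the 12 libraries on a log axis, ordered by the wildtype mean, with mutants left of wildtypes. Circles are libraries high in mt-Nd6 and squares are libraries low in it. Smo is highest and Shh lowest in both genotypes.

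Other genes of the pathway were read from 4 lists of 56 genes, of which 48 were tested. By edgeR 0 of these 48 passed over all genes, and limma voom and DESeq2 called 0, while 1 of the 48 had an unadjusted p under 0.05, where 2.92% of all genes had. Their log2 fold changes were above 0 for 31 and below 0 for 17, with a median of 0.03, against 0.14 for the 9 members. Among 6 tested genes for ligands and their release, 3 were higher and 3 lower. The ends of that list were Scube3, at 264 ± 32.9 CPM in mutants and 243 ± 14.1 CPM in wildtypes, and Scube2, at 0.836 ± 0.333 CPM in mutants and 1.08 ± 0.229 CPM in wildtypes (0.11 and -0.42). Both encode secreted proteins that carry Hedgehog away from the cell.

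Among 6 tested genes for reception 5 were higher and 1 lower, with a median of 0.12. Gpc6, a cell surface proteoglycan gene, was lowest in that list at -0.07 (SE 0.11).

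Among 23 genes of signal transduction 14 were higher and 9 lower, with a median of 0.01. Dyrk2, a kinase gene, had the one unadjusted p under 0.05, at 59.2 ± 5.33 CPM in mutants and 53.3 ± 3.997 CPM in wildtypes (log2 fold change 0.15, SE 0.06, unadjusted p = 0.0384, edgeR adjusted p = 0.918). Evc2, for a protein at the base of the cilium that works with Smo, was highest at 0.19 (SE 0.11), and Cul3, a ubiquitin ligase gene, lowest at -0.22 (SE 0.21). Among 14 tested target genes 10 were higher and 4 lower, with a median of 0.04, and Bmi1, a Polycomb gene, was lowest at -0.19 (SE 0.23).

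Of the cells that send the signal, 12 ganglion cell markers had 3 higher and 9 lower, with a median of -0.04. By edgeR 0 of them passed, where 0.0259% of all genes did. Of the 12, 2 had an unadjusted p under 0.05, where 2.92% of all genes had, each with an edgeR adjusted p of 0.918: Ebf3, a transcription factor gene, at 396 ± 18.8 CPM in mutants and 343 ± 19.1 CPM in wildtypes, and Nefm, a neurofilament gene, at 692 ± 46.3 CPM in mutants and 603 ± 44.4 CPM in wildtypes. Thy1, a surface protein gene, was lowest at -0.36 (SE 0.42), from 4 to 34 reads per library. Of the cells that respond, 12 progenitor markers had 6 higher and 6 lower over both sexes, with a median of 0.03. They ran from 0.14 for Sfrp2 (SE 0.12) to -0.13 for Top2a (SE 0.11). Ccnd1 and Hes1 are on this list and on that of target genes. Ccnd1 averaged 3119 ± 273 CPM in mutants and 2916 ± 121 CPM in wildtypes. With the sexes fitted alone, 9 of the 12 were higher in mutant males and 3 of the 12 in mutant females. By edgeR over both sexes 0 of the progenitor markers passed and 0 had an unadjusted p under 0.05. In that comparison limma voom and DESeq2 called 0 of either list. The part of either cell type's share in the Shh and target values was not tested. Optic stalk cells and astrocytes lie along ganglion cell axons and can respond to Shh. Over both sexes all 6 genes listed for them were higher, with a median of 0.13. The ends were 0.26 for Pdgfra (SE 0.33) and 0.02 for Slc1a3 (SE 0.07), and Gfap had only 4 to 35 reads per library. Of the 6, 0 were past edgeR's threshold or had an unadjusted p under 0.05. With the sexes fitted alone, 2 of the 6 were higher in mutant males and all 6 in mutant females. Over both sexes, markers of pigment epithelium had 3 higher and 3 lower. They ran from 0.69 for Ttr (SE 0.51, 2 to 16 reads per library) to -0.27 for Tyrp1 (SE 0.22). Fitted alone, mutant males had 0 of 5 tested higher and mutant females 4 of 5. Markers of vessels and mesenchyme had 4 higher and 5 lower over both sexes, from 0.18 for Col1a2 to -0.09 for Pdgfrb. Those of blood had 2 higher and 4 lower, with Alas2 lowest at -0.30.

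**Figure D4:**
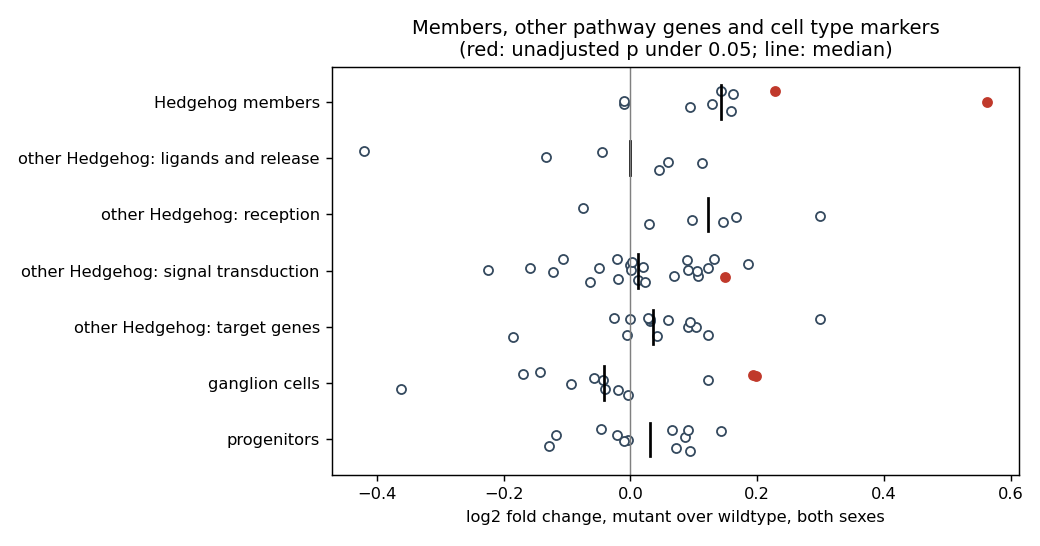
Log2 fold change, mutant over wildtype in both sexes, of each tested gene of the members, the 4 lists of other pathway genes, and the ganglion cell and progenitor markers. Red points have an unadjusted p under 0.05 and black lines are medians. Shh, at 0.56, lies apart from the others, and the medians of the 4 lists are at 0.12 or below.

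Whether the targets followed the ligand was read across the 12 libraries as the correlation of log2 CPM of Shh with that of Ptch1, Gli1 and Hhip, 3 pairs adjusted together. Hhip went with Shh over all libraries, at a Pearson r of 0.68 (two-sided permutation p = 0.0136, adjusted p = 0.0409) and a Spearman rho of 0.58 (permutation p = 0.0522, adjusted p = 0.114). For Ptch1 r was 0.40 (permutation p = 0.208, adjusted p = 0.312) and rho 0.54 (permutation p = 0.0760, adjusted p = 0.114). For Gli1 r was -0.14 (permutation p = 0.654, adjusted p = 0.654) and rho 0.10 (permutation p = 0.768, adjusted p = 0.768).

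Without the 2 libraries farthest from the median of Shh, wildtype males 4 and 6, r was 0.60 for Hhip (permutation adjusted p = 0.173), 0.40 for Ptch1 and -0.19 for Gli1. The 10 libraries gave Hhip a smaller r than the 12 and a p that was no longer past the threshold. Its r was past the threshold in only 2 of the 12 sets that leave out 1 library (r 0.60 to 0.79). In log2 CPM the 3 wildtype libraries low in Shh stood apart from the other 9, and within those 9 r was 0.25 for Hhip, 0.17 for Ptch1 and 0.02 for Gli1 (exact permutation adjusted p = 0.960 for each). With each group centred on its mean, which removes sex and genotype, r was 0.47 for Hhip (exact permutation adjusted p = 0.225), -0.22 for Ptch1 (exact permutation adjusted p = 0.574) and -0.745 for Gli1 (exact permutation adjusted p = 0.0139). With sex, genotype and the replicate number removed as separate terms, in place of the group means, r for Gli1 was -0.59. It was then not past the threshold (permutation adjusted p = 0.300).

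The negative relation of Gli1 moved with the mt-Nd6 set. Within a genotype, Shh was higher and Gli1 lower in all libraries of the high set than in those of the low set. With the set removed as well, a choice made after seeing the data, r was 0.03 for Gli1 (permutation adjusted p = 0.946) and 0.23 for Hhip (permutation adjusted p = 0.728). For Ptch1 r was 0.70 (permutation p = 0.0424, adjusted p = 0.127). Libraries were permuted within their group and not within their set, so these p-values are not exact. Within the 7 libraries low in mt-Nd6, where the mutants and the wildtypes form separate groups in Shh, the relation cannot be told apart from genotype, and the 5 libraries high in mt-Nd6 are too few for a value.

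**Figure D5:**
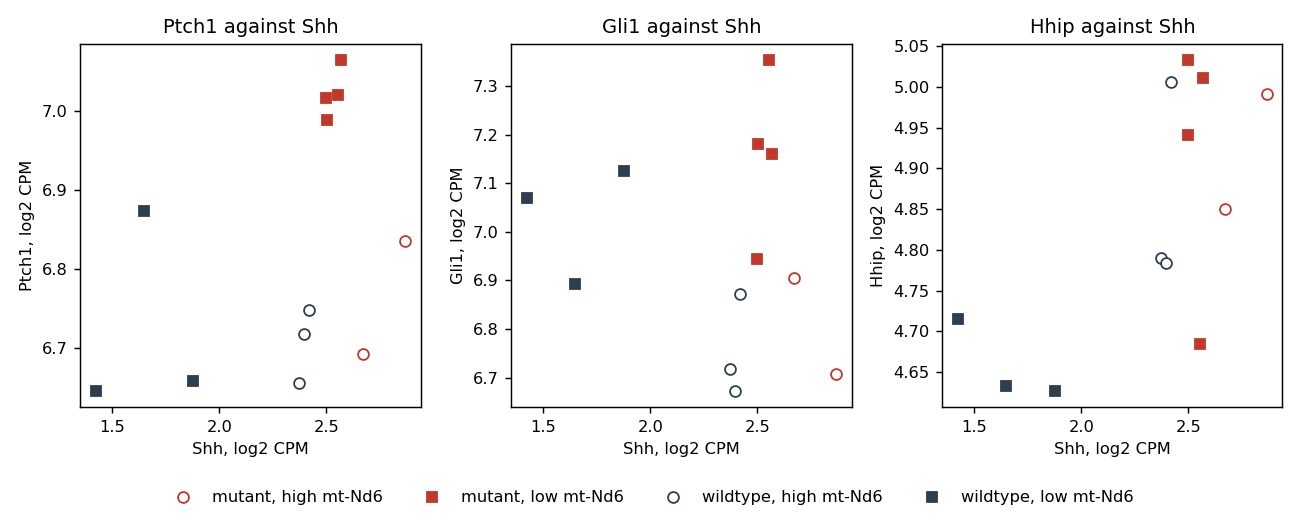
Log2 CPM of Ptch1, Gli1 and Hhip against log2 CPM of Shh in the 12 libraries, with mutants in red, wildtypes in dark blue, circles for the set high in mt-Nd6 and squares for the low set. The 3 wildtype libraries low in mt-Nd6 lie apart at the left, and 1 circle of Gli1, mutant male 4, is just above the lowest square on this scale, which includes TMM.

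Among the members, those most like Shh over the 12 libraries were Gli3 (r = 0.74) and Hhip (r = 0.68), and Cdon ran opposite to Gli1 (r = -0.85). These are descriptions over libraries that share the mt-Nd6 sets. Among 12633 genes compared with each, the 5 with the highest r with Shh were Dnase2a (0.87), Nin (0.81), Thrap3 (0.80), Phlpp1 (0.80) and Stx17 (0.79). The 4 with the highest r with Gli1 were Suv420h2 (0.97), Elmo2 (0.96), Ldb1 (0.95) and Rgl2 (0.95). Elmo2 was at 101 to 111 CPM in the 5 libraries high in mt-Nd6 and at 116 to 138 CPM in the 7 low ones, and Ldb1 at 244 to 280 CPM in the high ones and at 291 to 367 CPM in the low ones.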

How the data were processed

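Retinal RNA was sequenced as 12 libraries, each from a pool of 12 retinas. The submitters' processing notes name CASAVA, STAR 2.5 with build mm10, HTSeq 0.6.1 and DESeq2. Which annotation release and strand setting served for counting is not stated in these sources. The deposited counts were raw reads per gene. The deposited FPKM were those counts per listed gene length and library total, within 0.0274%, and the gene length, entered here as a score, was deposited by the authors in bases. The log2 fold changes and p-values of the authors' deposited tables were used as described values.

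From the deposited counts, edgeR 4.0.16 in R 4.3.3 gave TMM scaling, filterByExpr, the two-sided quasi-likelihood test and Benjamini-Hochberg adjustment over all genes tested, at a threshold of 0.05. The fit of both sexes had sex and genotype as terms. Standard errors are each log2 fold change divided by root F. CPM are counts scaled to a common library total, without TMM. DESeq2 1.42.0 and limma 3.58.1 (voom) were alternatives. Correlations used log2 CPM with TMM and a prior count of 2, and 100000 permutations, or every permutation below 10 libraries, with p two-sided as the share of absolute r at least as large. With group means removed, libraries were permuted within their group in all 1296 ways. The fits were tested on simulated data.

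The members and lists were chosen with earlier results of these data known. All 9 members were named, with Eomes and the list genes with an unadjusted p under 0.05 or at either end of their list. So were the 5 genes most like Shh and Gli1 with a mean of at least 1 CPM. The search for those left out symbols that start with Gm or RP plus digits or end in Rik. A few genes that this rule names are not reported here. Deviations of same-numbered mutant and wildtype libraries from their group means had correlations of 0.210 to 0.345 in females over 13701 genes. In males the correlations were -0.314, 0.0306 and 0.439. Whether the numbers mark pairs was not tested, and the main fits did not treat them as pairs. No 2 libraries of a group agreed within counting noise. Total counts were 18514607 to 27072825, and intervals cover counting error only.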

Additional observations from a re-analysis of the deposited data

Results flagged for a closer look

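Among the 18 combinations of a member and a genotype with 6 libraries each that were checked for a library standing apart, 2 were found, and chance gives about 1 in 20. Ptch1 in wildtype male 4 was at 118.1 CPM, above the other wildtype libraries at 99.16 to 106.1 CPM. Hhip in wildtype female 6 was at 31.67 CPM, above the other wildtype libraries at 24.79 to 27.15 CPM.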

How the results depend on the processing

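No member passed in any comparison under any alternative run, the replicate block included, where 0 members were called. Of 801 member log2 fold changes under alternatives, 757 kept their direction and 44 changed it. Over both sexes, leaving out 1 library gave -0.098 to 0.0462 for Boc and -0.0462 to 0.0173 for Cdon, the mt-Nd6 term gave 0.00457 for Cdon, and within the high set Gli2 was at -0.0256, Boc at 0.0288 and Cdon at 0.0664. In females Gli1 was at -0.0562 with the mt-Nd6 term and at -0.0648 to 0.186 leaving out 1 library, and Cdon at -0.019 to 0.112. In males Gli3 was at -0.0183 to 0.176. For the interaction, leaving out 1 library gave -0.0969 to 0.102 for Ptch1, -0.114 to 0.116 for Gli2, -0.0235 to 0.17 for Gli3, -0.0500 to 0.141 for Hhip and -0.184 to 0.0625 for Smo, and the mt-Nd6 term gave -0.0131 for Ptch1 and -0.0216 for Gli2. Between females and males, leaving out 1 library gave -0.0594 to 0.0343 for Ptch1, -0.0869 to 0.0184 for Smo and -0.0096 to 0.0537 for Cdon, and Ptch1 was at 0.00375 with voom and 0.0238 with the mt-Nd6 term. The cause of these changes was not tested.

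Genes called over both sexes numbered 4 by edgeR, 15 by DESeq2, 9 with the mt-Nd6 term, 2 with the replicate block, 0 without the 3 libraries highest in Cryaa and 1 to 5 leaving out 1 library. In males they were 0 by edgeR and 6 by DESeq2. In females they were 1 by edgeR, 10 by DESeq2, 2 with the replicate block and 0 to 2 leaving out 1 library.

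The correlation of Shh with Hhip was 0.634 on library totals, 0.469 with groups centred and 0.435 with sex, genotype and the replicate block removed. It was 0.686 within the low set, 0.227 with groups and set removed and 0.246 without the 3 libraries lowest in Shh. None of these was past the threshold. Leaving out 1 library gave 0.599 to 0.785. For Ptch1 it was -0.221 with groups centred, -0.189 with the replicate block and 0.875 within the low set (exact permutation adjusted p = 0.0298, counting absolute r). This p is 0.0595 when the smaller tail is doubled, a choice made after seeing the data that moved no other of the 9 p-values compared across the threshold. For Gli1 it was -0.745 with groups centred, -0.590 with sex, genotype and the replicate block removed (adjusted p = 0.300), 0.489 within the low set, 0.0255 with groups and set removed, 0.0197 without the 3 lowest libraries and -0.300 to 0.0106 leaving out 1 library. The correlations with groups and set removed and without the 3 lowest libraries were chosen after seeing the data, as were, outside the fit of both sexes, the other scalings, voom and the mt-Nd6 term. Depth limits Shh most, at 59 to 158 reads per library.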
